A study of Drosophila melanogaster with 4 samples.

Results

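Cytosolic ribosomal proteins are the protein parts of the large and small subunits of the ribosome that translates nuclear messages. Their genes were taken here as all protein-coding genes whose symbol begins with RpL or RpS, which gave 92 of the 13968 protein-coding genes of Drosophila melanogaster. Of these, 54 belong to the large subunit, with the stalk proteins counted among them, and 38 to the small subunit. The genes were short, with a median length of 1315 bp (304 to 4677 bp) against 2164 bp for all protein-coding genes. They were examined in a chromatin immunoprecipitation sequencing (ChIP-seq) experiment on Doublesex, the transcription factor whose male and female isoforms direct sexual differentiation in flies. The material was whole prepupae (24 h) of both sexes together, from a transgenic line stably carrying dsx fused at its C-terminal end to enhanced green fluorescent protein (dsx-eGFP), and chromatin was precipitated with an antibody against the tag. All 4 biological replicates have this genotype, stage and sex and form 1 group, so there was no second condition to compare. Whole animals of both sexes were used, so a summit cannot be assigned to a tissue or to one sex.

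In Drosophila, ribosomal protein genes are among the most strongly transcribed genes of growing cells and have promoters of their own kind. Transcription starts within a pyrimidine-rich initiator, the TCT motif, in place of the usual initiator, and it depends on the TBP-related factor TRF2 in place of the TATA-binding protein. Many of these promoters also carry sites for the factors DREF and M1BP. Doublesex binds through a DM domain to sequences with the core ACAATGT, and its well-known targets, such as the yolk protein genes, are far from the ribosome in function.

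The start regions of several of these genes are printed first, because the results turn on where summits lie relative to them. Each stretch has 30 bases, 15 before the start and the start with the 14 after it, in the orientation of the gene, and capitals mark CTTT, the core of the pyrimidine initiator. RpL3, RpL30, RpL32 and RpS4 are among the 12 genes with the strongest reproducible summits, RpL14 had the narrowest spread of summit positions between replicates, and RpS27A and RpS3 had no reproducible summit. Sequence is from the RefSeq copy of the dm6 assembly.
RpL3, 3R:11221879-11221908, plus strand: cggaagtcggaatcgtttCTTTtccgtttt
RpL30, 2L:19009223-19009252, minus strand: atttccgcctgttcttcctCTTTcttttgc
RpL32, 3R:30046147-30046176, minus strand: tcacaccaccagCTTTttcttttcgcttct
RpS4, 3L:13041786-13041815, plus strand: caccgcccgcaaatctgcCTTTtccttttc
RpL14, 3L:8600991-8601020, plus strand: ctgtcaaaaaagttCTTTccttctctttct
RpS27A, 2L:10408337-10408366, plus strand: cacgctgtgtgtgtgttCTTTctttccttt
RpS3, 3R:23358797-23358826, plus strand: gcgcgggcacactggcctCTTTcttttctg
The next starts hold no CTTT in the stretch shown, although RpL9 and RpS27 have it at another annotated start. RpL9 and RpL10Aa had no summit in any list, and RpS27 had a strong one.
RpL9, 2L:11004175-11004204, minus strand: cgctcaaaatttagcgcattttgtgcgcct
RpL10Aa, 3R:15037351-15037380, plus strand: tacaatacatttcaaattttgtgcttgtag
RpS27, 3R:25247500-25247529, minus strand: tgttcagcattatttagtgcattctcgggc

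CTTT began within 5 bases of an annotated start in 58 of the 92 genes (63.0%), against 8.06% of all protein-coding genes. It was rare in the genes of the mitochondrial ribosome (5.48% of 73) and in translation factor genes (12.7% of 55). The TATA box TATAAA lay 20 to 40 bases before a start in 1 gene, RpL39, against 8.46% of all genes. The DREF element TATCGATA was present between 250 bases before and 50 after a start in 28 genes (30.4% against 10.2%), and the M1BP element GGTCACAC in 15 (16.3% against 8.70%). The Doublesex core ACAATGT was present in this region in 7 genes (7.61% against 5.93%). Each of these motifs except CTTT and TATAAA was sought on both strands, and a match is a string of letters, not a measured site.

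Doublesex-eGFP summits were more common at the starts of cytosolic ribosomal protein genes than at those of protein-coding genes at large, in each of the 4 replicates. In the reproducible list, 47 of the 92 genes had a summit within 1 kb of an annotated start (51.1%, exact 95% binomial interval 40.4 to 61.7%), against 26.2% of all protein-coding genes. In the longer list called on pooled replicates the count was 71 of 92 (77.2%), against 41.6%. Among the strongest 10000 summits of each replicate, 56 genes (60.9%) had one in replicate 1, against 29.7% of all genes. The counts were 64 (69.6% against 31.2%) in replicate 2, 50 (54.3% against 27.6%) in replicate 3 and 55 (59.8% against 27.8%) in replicate 4. The mean over replicates was 61.1% ± 6.30 (SD, n = 4) for the ribosomal protein genes and 29.1% ± 1.74 (SD, n = 4) for all genes, and the lowest replicate of the former was above the highest of the latter. In the full lists of 30000 summits, 80, 83, 70 and 71 genes had a summit in replicates 1 to 4, against 47.6%, 48.8%, 42.0% and 42.2% of all genes.

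**Figure D1:**
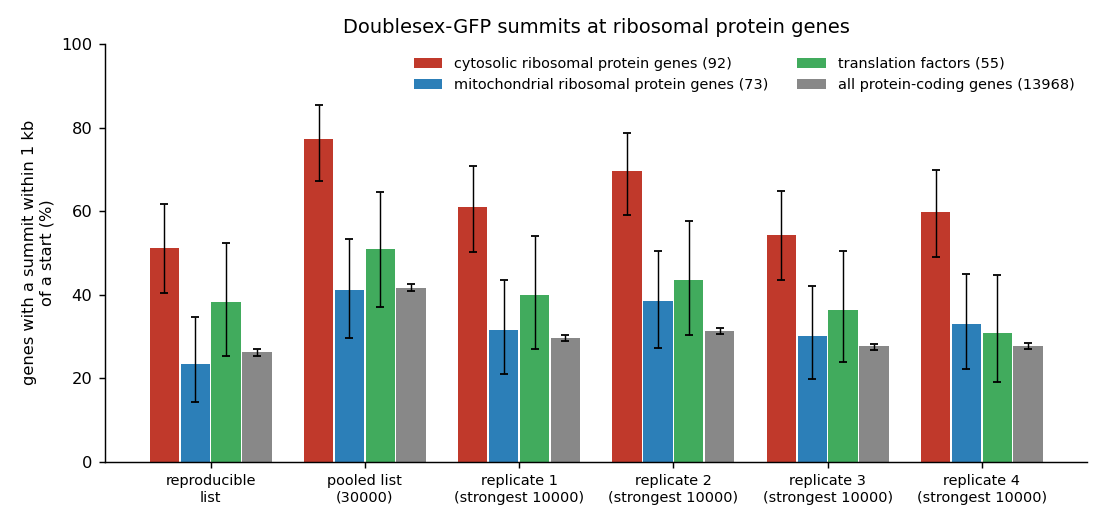
Percent of genes with a summit within 1 kb of a start (vertical axis) in each peak list (horizontal axis), with exact 95% binomial intervals as bars, for cytosolic and mitochondrial ribosomal protein genes, translation factors and all protein-coding genes. The cytosolic set is at 51.1% in the reproducible list and between 54.3% and 69.6% in the 4 replicates, above the other sets in every list.

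The shares were lower for other genes of the translation machinery. Of the genes of the mitochondrial ribosome, which have a separate evolutionary origin and serve a separate compartment, 17 of 73 had a reproducible summit (23.3%). Translation factors had one in 21 of 55 (38.2%), and genes of ribosome production, such as nucleolar and RNA polymerase I factors, in 6 of 29 (20.7%). Among 6 genes listed here as promoter factors (Trf2, M1BP, Dref, Myc, Max and Maf1), 5 had a reproducible summit. The summits of Trf2, M1BP and Max had signal values of 713.5, 1023 and 554.5. Those of Trf2 and M1BP are nearest to another gene's start, and 2 of the 6 genes had one nearest to their own start. Of the other protein-coding genes no longer than the longest ribosomal protein gene (4677 bp), 19.6% had a reproducible summit; most of that range is above the ribosomal protein genes' median length, and the part of gene length was not tested.

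A reproducible summit was present at 29 of 54 large subunit genes (53.7%) and 18 of 38 small subunit genes (47.4%), a difference that was not tested. By chromosome arm the shares ran from 5 of 19 on 2L to 11 of 14 on 3L, with 10 of 21 on 2R, 12 of 23 on 3R and 8 of 14 on the X, and the single gene on chromosome 4, RpS3A, had one. Over all protein-coding genes the shares were 23.2% on 2L, 25.8% on 2R, 27.6% on 3L, 26.7% on 3R and 28.2% on the X, so the 26.3% of the ribosomal protein genes on 2L was close to that of the arm. All 14 X-linked genes had a pooled summit, but their summits were modest. The signal value at the reproducible summits nearest to their own starts was 258.0 to 447.9 (median 314.9, 8 genes), against 267.6 to 795.7 (median 433.8, 34 genes) on the autosomes, and 16 autosomal genes were above the highest X-linked one. Over all genes the medians were 493.7 on the X and 536.8 on the autosomes. In whole animals of mixed sex, the number of X copies differs between the chromatin of males and females, and its part in these values was not tested.

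The summits lay on the starts themselves. Over the 47 genes the strongest reproducible summit had a median offset of -17 bp (negative is upstream, range -930 to 51) and a median distance of 37 bp in either direction, whereas over all 3654 genes with a summit the median offset was -122 and the median distance 174 bp. Of the 47, 29 were within 50 bp of a start (61.7% against 15.8%) and 36 within 100 bp (76.6% against 29.0%). Upstream summits numbered 35, and the other 12 lay at or past the start, none farther than 51 bp into the gene. Counted over all 92 genes and any reproducible summit, 40 had one within 100 bp (43.5% against 9.66%), 44 within 250 bp (47.8% against 18.7%) and 45 within 500 bp (against 22.3%). Widening the distance from 100 bp to 1 kb thus added 7 of these genes, whereas the share over all genes rose from 9.66% to 26.2%.

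**Figure D2:**
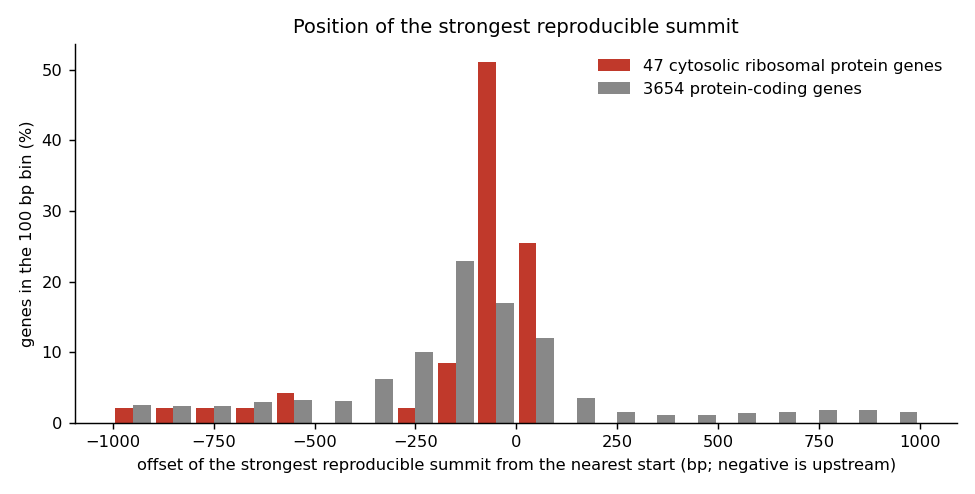
Percent of genes (vertical axis) by the offset in bp of the strongest reproducible summit from the nearest annotated start (horizontal axis, bins of 100 bp, negative upstream), for 47 ribosomal protein genes and all 3654 protein-coding genes with a summit. The bin just upstream of the start holds 51.1% of the ribosomal protein genes against 17.0% of all genes, and the bin from 100 to 200 bp upstream 8.51% against 22.9%.

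The position held in each replicate, including replicate 1, which was not among the inputs of the pooled and reproducible lists. Within 100 bp of a start, the strongest 10000 summits of replicates 1 to 4 gave 35, 49, 33 and 41 of the 92 genes, which is 38.0%, 53.3%, 35.9% and 44.6%. For all protein-coding genes these shares were 11.7%, 12.8%, 10.2% and 10.8%. The median offset of the genes' strongest summit was 7.5, -5.0, -45.5 and -52.0 bp in replicates 1 to 4, so it lay further upstream in replicates 3 and 4. Medians over all genes were -109, -112, -124 and -123 bp. Mitochondrial ribosomal protein genes had a median offset of -148 bp in the reproducible list and translation factors of -102 bp.

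More than 1 gene can share a summit, because 58 of the 92 genes (63.0%) had another protein-coding start within 1 kb, against 42.2% of all genes. A reproducible summit was present at 34 of these 58 and at 13 of the 34 genes without such a neighbour. The same split over all protein-coding genes is not given here, so whether it is particular to these genes was not tested. Taking only summits whose nearest start is that of the ribosomal protein gene, called own summits here, left 42 of 92 genes against 20.5% of all genes. The median offset of own summits was -12 bp (-157 to 51), and 39 of 42 (92.9%) lay within 100 bp, against 37.1% of 2867 genes. At 5 genes, among them RpS19b, RpL34b and RpL23, the reproducible summits were all nearest to another start.

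An own summit was present in all 4 full replicate lists at 49 genes. Each offset is to the nearest annotated start. Between the outermost replicates the offsets differed by a median of 108 bp (17 to 633 bp). This difference was at most 100 bp in 21 of the 49, with a median SD of 49.6 bp (n = 4). Where a gene has more than 1 start, replicates can be measured from different starts. The difference is then not the distance between their summits. At RpL14, a large subunit gene, the replicates lay at -19, -5, -17 and -22 bp, the narrowest range and just upstream of the CTTT printed above. RpL30, which has 2 annotated starts, had -15, -11, -23 and 21 bp to the nearest of them. RpS27 was the widest because replicate 1 lay at 635 bp and the others at 4, 6 and 2 bp.

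**Figure D3:**
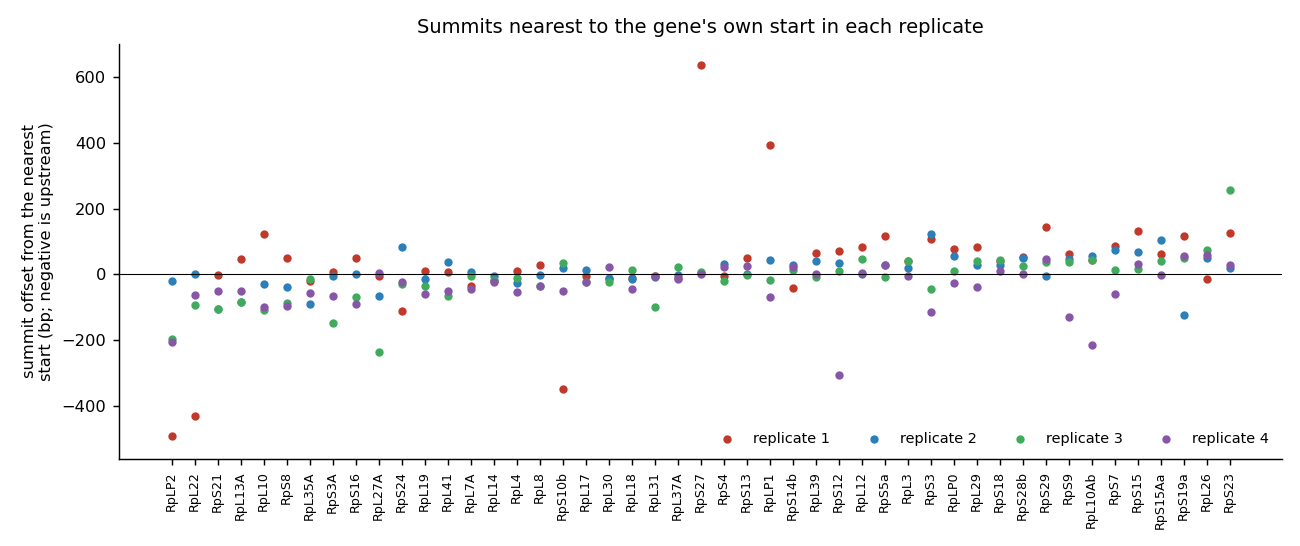
Offset in bp (vertical axis, negative upstream) of the strongest own summit in each replicate's full list for 47 of the 49 genes with one in all 4, sorted by their median (horizontal axis). Most points lie within 100 bp of the start, and the widest range, that of RpS27 (633 bp), comes from replicate 1.

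The summits were frequent but rarely among the strongest. The signal value is the authors' own per-peak number and is read here only within a list. At the genes' strongest reproducible summits it had a median of 421.2 (258.0 to 1739), against 541.8 for all genes with a summit and 463.2 over all 9154 reproducible summits. The median summit of the 47 was stronger than 43.6% of the reproducible list, against 58.9% for all genes. In the longer pooled list the values were closer, 75.3% against 77.6% for all genes. Own summits reached no higher than 795.7 and none was among the strongest 1000, where 466 own summits of all genes were found. The 17 mitochondrial ribosomal protein genes with a summit were fewer but stronger, with a median of 846.5, led by mRpS23 (5869), mRpS10 (5564) and mRpL41 (3729), of which the first and second are nearest to another start. Among translation factors the strongest were eIF2Bbeta (7817), eIF2beta (7555) and eIF4EHP (5205), and among ribosome production genes Rrp40 (3063), Ns2 (2471) and Polr1D (809.0). All of these except eIF2beta and Polr1D are nearest to another start.

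The strongest 3 summits were nearest to other genes. RpS19b (3R:23932729-23933530), a small subunit gene known for germline expression in flies, had a summit of 1739, rank 625 of the list, at -930 bp and nearest to CG5854. It ranked 467, 430, 863 and 949 in replicates 1 to 4, the only summit of these genes among the first 1000 of the reproducible list. RpS28b had 994.6 at -788 bp, nearest to l(1)G0320, and a weaker own summit of 445.6 at -1 bp. RpL34b had 958.6 at -155 bp, nearest to CG8132, and ranked 1205, 1435, 2405 and 2423. RpL23 (663.7 at -559 bp, nearest to CG13531) was the fourth such gene of the strongest 12.

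At the other 8 of the strongest 12, the reproducible summit was nearest to their own start. RpL3 (3R:11221894-11225173), a core protein of the large subunit near the peptidyl transferase centre, had 795.7 at +40 bp and ranked 1463, 1520, 3823 and 4428 in replicates 1 to 4. It was thus stronger in rank in replicates 1 and 2 than in 3 and 4. RpL30 (2L:19008031-19009306) showed the same order, with ranks 1872, 1950, 3277 and 3488 and 724.0 at -16 bp. RpL35A (3R:5465630-5467101) went the other way, with ranks 4033, 4075, 2677 and 1717 and 773.4 at -58 bp. RpS27 (3R:25245955-25247514), a zinc-binding small subunit protein, had 762.3 at -16 bp and ranks 2700, 3335, 2156 and 1494. The rank in replicate 1 is of a summit at -241 bp that is nearest to another gene's start. The strongest own summit of RpS27 in replicate 1 ranked 22185. RpL32, long used as a reference gene in Drosophila expression work, had 702.3 at -150 bp. In replicates 1 to 4 its strongest summit lay at -150, -170, -168 and -111 bp, and those of replicates 2 and 3 were nearest to another gene's start. RpL19 had 694.7 at +1 bp, RpL41 652.2 at -25 bp and RpS4 632.9 at -10 bp.

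**Figure D4:**
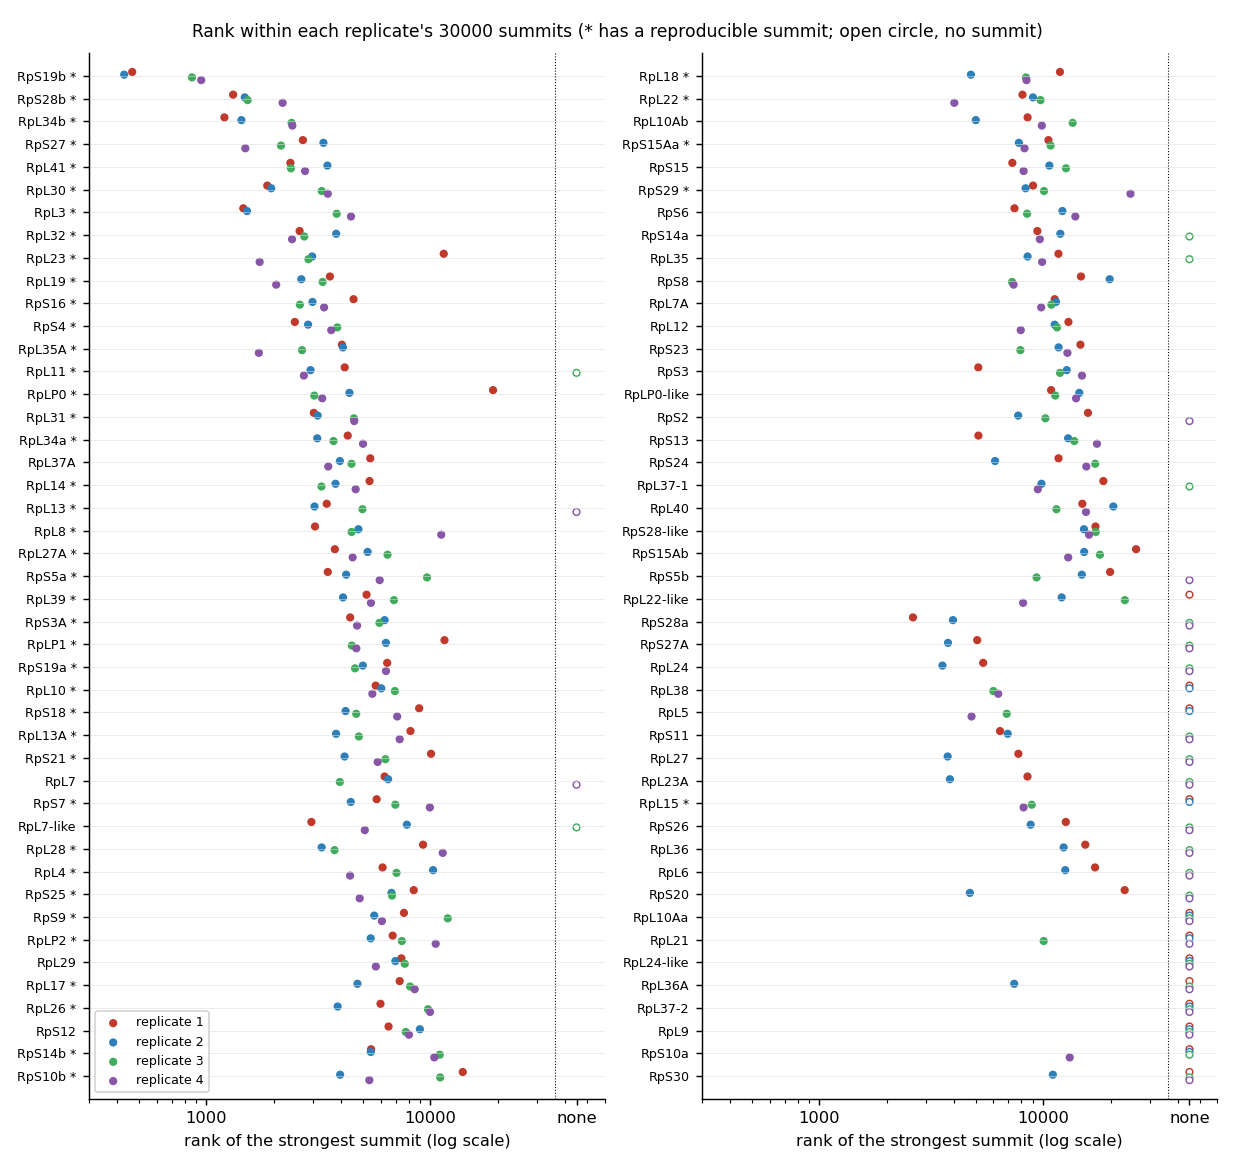
Rank of each gene's strongest summit within 1 kb in each replicate's list of 30000 (horizontal axis, log scale; an open circle at the right means no summit), for 90 of the 92 genes sorted by median rank, with a star where a reproducible summit exists. RpS19b lies under rank 1000 in every replicate, and several genes without a star, such as RpL37A, lie among the starred ones.

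Promoter sequences are given for RpL3 and RpL35A, the strongest genes with own summits, with 120 bases before the start and 20 from it, and CTTT at the start of RpL3 in capitals. RpL35A has no CTTT within 5 bases of its start. The start is base 121 of each run.
RpL3, 3R:11221774-11221913, plus strand: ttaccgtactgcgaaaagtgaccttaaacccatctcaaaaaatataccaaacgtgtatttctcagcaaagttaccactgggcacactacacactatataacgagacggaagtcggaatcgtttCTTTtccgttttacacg
RpL35A, 3R:5467082-5467221, minus strand: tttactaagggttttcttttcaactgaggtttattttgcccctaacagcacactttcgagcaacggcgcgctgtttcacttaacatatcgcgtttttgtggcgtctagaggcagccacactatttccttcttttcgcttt
Of the ribosomal protein genes, 31 of 58 genes with CTTT (53.4%) and 16 of 34 without (47.1%) had a reproducible summit. Among all other protein-coding genes, 376 of 1068 with CTTT had one (35.2%), against 25.2% of those without.

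Few of these summits had a Doublesex core beside them. ACAATGT lay within 50 bp of the strongest summit at 1 of 47 genes, RpL13A (2.13%, exact 95% interval 0.0539 to 11.3%), against 6.20% of the 2743 summits that are strongest at any gene and 8.06% of all reproducible summits. The interval includes both background shares, so 47 summits are too few to show a difference. The related ACAAAGT was at 0 of 47 (exact 95% interval 0 to 7.55%), against 6.56% and 6.84%, which this interval also includes. The degenerate 13-base consensus was at 1, RpL3 (against 5.03%). At 100 bp, ACAATGT was at 4 of 47 (8.51% against 8.93%). Both matches are printed because they are the only ones within 50 bp of a strongest summit, with the motif in capitals. The first run is the 101 bases centred on the RpL13A summit, at -57 bp, and the second is 30 bases of RpL3 that lie in no annotated exon, with the match 70 to 82 bp past the start.
RpL13A, 3R:5624367-5624467, plus strand: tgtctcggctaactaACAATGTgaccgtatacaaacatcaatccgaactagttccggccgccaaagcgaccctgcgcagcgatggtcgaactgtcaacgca
RpL3, 3R:11221956-11221985, plus strand: taaattatATTACTATGTGATgtgtcaaaa

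Elements of the promoters themselves were also counted at the summits. TATCGATA was within 50 bp at 3 of 47 (6.38%, exact interval 1.34 to 17.5%, against 2.19%). GGTCACAC was within 50 bp at 3, RpL27A, RpL30 and RpLP0 (6.38% against 2.30%). GAGAG, the core of GAGA factor sites, was within 50 bp at 3 (6.38% against 17.2%). The interval for 3 of 47 includes each of these background shares, so the 50 bp counts are too few to show a difference. Within 100 bp, TATCGATA was at 9 (19.1%, 9.15 to 33.3%, against 4.81%) and GGTCACAC at 4 (8.51%, 2.37 to 20.4%, against 3.86%). GAGAG was within 100 bp at 6 (12.8%, 4.83 to 25.7%, against 31.5%). At 100 bp the interval excluded the background share for TATCGATA and GAGAG but not for GGTCACAC. The 101 bases around the genes' summits had a median GC content of 43.6%, against 37.6% around all genes' strongest summits, and the part of base composition in these shares was not tested. The genes' strongest summits also lay within 100 bp of a start more often (76.6% against 29.0%), and the part of position was not tested. Counted by promoter, 13 of 28 ribosomal protein genes with TATCGATA had a reproducible summit (46.4%), against 34 of 64 without (53.1%). Over all protein-coding genes these shares were 35.0% and 25.2%.

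Of the ribosomal stalk, which recruits translation factors to the ribosome, all 3 genes had a reproducible own summit. RpLP0 had 497.0 at -9 bp, RpLP1 311.1 at -146 bp and RpLP2 307.5 at -157 bp. RpLP0 ranked 19077, 4358, 3036 and 3294 in replicates 1 to 4, and RpLP1 11578, 6340, 4468 and 4678, so both were weakest in replicate 1. RpLP2 ranked 6796, 5422, 7471 and 10580.

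Several ribosomal proteins are encoded by more than 1 gene, and in flies some second copies, such as RpL22-like, RpS5b and RpS19b, are known for expression in the germline. In 13 such sets with 27 genes, own reproducible summits were at 1 gene in 9 sets, at 2 genes in 0 and at none in 4. The copies with one were RpL22 (263.2), RpL34a (560.9), RpLP0 (497.0), RpS5a (365.6), RpS10b (302.3), RpS14b (274.7), RpS15Aa (258.0), RpS19a (447.9) and RpS28b (445.6). Their partners RpL22-like, RpL34b, RpLP0-like, RpS5b, RpS10a, RpS14a, RpS15Ab, RpS19b, RpS28a and RpS28-like had no own reproducible summit, and neither had RpL7, RpL7-like, RpL10Aa, RpL10Ab, RpL24, RpL24-like, RpL37-1 and RpL37-2. Of the 27 genes in sets 9 had an own reproducible summit, and of the 65 in no set 33 did, against 20.5% of all protein-coding genes. Whether sets with 1 such gene were more common than these shares would give was not tested. The split depends on which start is nearest. The RpL34b summit at -155 bp is 114 bp from the start of CG8132. The strongest summits of RpL34a in replicates 1 and 2, at -125 and -145 bp, were nearest to another gene's start. RpS14a and RpS14b are near-identical tandem copies, so reads could be shared between them. The RpS14b summit lies 1167 bp from the start of RpS14a, just outside the 1 kb limit, and RpS19b at -930 bp is the outermost summit inside it.

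The lists differed at single genes more than the counts show. A summit was in the strongest 10000 of all 4 replicates at 32 genes, of 3 at 15, of 2 at 20, of 1 at 12 and of none at 13, against 19.3%, 5.87%, 6.89%, 7.57% and 60.4% of all genes. Thus 47 genes had one in 3 or 4 replicates, and 41 of these are among the 47 with a reproducible summit. A pooled but no reproducible summit was present at 24 genes (against 15.5% of all genes). RpS15Aa (258.0) was the weakest inside the reproducible list and RpL29, at pooled rank 9372, the first outside it.

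No pooled summit was present at 21 genes. Of all 92 genes, 14 had no pooled summit but 1 in a replicate's strongest 10000, against 884 of all 13968 genes (6.33%). For a strongest 5000 the counts were 10 of the 92, against 261 of the 13968 (1.87%). Among the 79 genes with a summit in any strongest 10000, 14 lacked a pooled one (17.7%), close to the 16.0% of all such genes, and among the 50 with one in a strongest 5000, 10 did, against 7.74%. RpL37A was the clearest case, with ranks 5397, 3949, 4453 and 3505 in the 4 replicates at -11, -2, 21 and -14 bp and no pooled summit. RpL24 ranked 5395 and 3550 in replicates 1 and 2 and RpS27A 5075 and 3758, and neither had a summit in replicates 3 and 4. RpL5 had the reverse, with ranks 6875 and 4788 in replicates 3 and 4 and none in 1 and 2. The cause of these gaps was not tested. They mean that a missing summit in 1 list does not show an unbound start.

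Replicate 1 is outside the inputs of the reproducible list. A summit within 100 bp of the reproducible one was in its strongest 10000 at 29 of 47 genes (61.7%), against 79.1% of the strongest summits of all genes, and within 1 kb of a start at 39 of 47 (83.0% against 88.5%). The 18 genes without one within 100 bp included RpS27, RpL23, RpL13, RpL13A, RpS21, RpL10, RpL18, RpS10b, RpL15, RpS14b, RpL28, RpS29, RpL22, RpS15Aa and the stalk genes RpLP0, RpLP1 and RpLP2. RpL9, RpL10Aa, RpL24-like and RpL37-2 had no summit within 1 kb in any of the 6 lists. Of these, RpL9 is in none of the sets above, and the others belong to sets with a second copy.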

How the data were processed

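The deposited peak lists are on dm6, per the file notes. They record 1 control file for each replicate, a pooled call on replicates 2, 3 and 4, and a reproducible list (9154 summits) that the authors took from these by IDR (irreproducible discovery rate). Aligner, caller and threshold: not given in the sources used here. The peak signal is the authors' deposited score, not normalized between lists, and was used as a rank within a list. The deposited summit position was added to the interval start. Read depth is unknown, so intervals (Clopper-Pearson) cover counting error over genes or summits only.

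Genes are Ensembl release 115 models and sequence is RefSeq dm6; offsets are to the nearest annotated start. With 1 group no test between conditions was possible. Replicates enter as mean and SD, and the labels call them biological. Members, lists and motifs were chosen with earlier results of these data known. Named genes were the 12 with the strongest reproducible summits, paralogs, the stalk, motif carriers, genes unsupported by replicate 1 within 100 bp, genes with no summit, and at most 3 of each other list; gap, list-difference and start-sequence examples were chosen after their values were seen. Some named results and their points in figures are not reported here. Of the ribosome production symbols, 3 were unmatched. Offsets were tested on simulated summits. Python 3.11.15, pandas 2.3.3 and scipy 1.17.1 were used.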

Additional observations from a re-analysis of the deposited data

Results flagged for a closer look

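Replicate ranks were checked for 34 measures with Dixon's ratio, and 3 had a replicate far from the other 3. RpL23 ranked 11489 in replicate 1, against 2970, 2860 and 1731. RpLP0 ranked 19077 in replicate 1, against 4358, 3036 and 3294. RpS29 ranked 24534 in replicate 4, against 9009, 8346 and 10088. Chance flags about 1 in 20 such groups.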

How the results depend on the processing

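The count of 47 genes became 71 in the pooled list (against 41.6% of all genes) and 20 in the strongest 4577 reproducible summits (against 15.4%). It was 42 to 53 under the other 8 alternatives, among them a summit in 3 or 4 replicates, chosen after seeing the data. The mean share over replicates was 31.8% for the strongest 5000 (against 17.1%) and 82.6% for all 30000 (against 45.1%), and 58.3% to 63.4% when each replicate was left out. The median offset was -17 bp in the reproducible list, -15 bp for the nearest summit and -12 bp for own summits. In the pooled list it was -18 bp, and -5.5 bp for own summits. Over the strongest summits of each replicate, as reported above, the median was 7.5, -5.0, -45.5 and -52.0 bp in replicates 1 to 4. The median offset thus varied more between replicates than between these settings. The median summit was stronger than 75.3% of the pooled list (all genes, 77.6%), a longer list. Summits with ACAATGT numbered 4 within 100 bp and 2 over any reproducible summit, and those with ACAAAGT 0. No paired analysis was possible because there is 1 group. Fixed list lengths, an unknown read depth and whole animals limit what a missing summit shows.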
